A study of Mus musculus with 2 samples.

Results

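A group of 10 miRNAs that are broadly expressed and often used as normalizers for exosome or plasma RNA was examined in exosomes of LLC cells, a mouse Lewis lung carcinoma cell line. The members were mmu-miR-103-3p, mmu-miR-107-3p, mmu-miR-191-5p, mmu-miR-191-3p, mmu-miR-320-3p, mmu-miR-423-5p, mmu-miR-423-3p, mmu-miR-425-5p, mmu-miR-484 and mmu-miR-26a-5p. They were chosen by name, with earlier results of these data known. All 10 were on the array among 1881 mouse miRNAs, with 26 of the 4415 probes and 300 of the 56430 miRNA spots. Exosomes were collected by ultracentrifugation from the supernatant of untreated LLC cells kept in serum freed of exosomes. The RNA of 2 independent experiments was hybridized to 2 Agilent mouse miRNA microarrays, with Cy3 as the only dye. The LLC exosomes form 1 group with 1 array for each experiment, so no group was compared with another and no p-value was computed. The GEO labels describe a blood RNA kit with globin removal and cRNA labelling, whereas the methods of the study name a miRNA array, and the labelling that was used cannot be told from these sources.

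A normalizer is a transcript whose level is taken as equal in all samples, so that differences in RNA input or labelling can be divided out. For circulating and vesicle RNA there is no universal housekeeping transcript, and miRNAs made by nearly every cell type are used in its place. A miRNA hairpin has a 5p and a 3p arm, of which the guide arm is loaded into Argonaute and the other arm is mostly degraded. The primer list of the study holds U6 small nuclear RNA and no primer for these 10 miRNAs.

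The mature sequences are shown because the members differ in length, base content and seed, on which hybridization and targeting depend. They are RefSeq sequences on GRCm38.p6, written 5′ to 3′, with the seed (bases 2 to 8) in capitals, and 9 of the 10 members were matched. The member not matched was mmu-miR-320-3p.
mmu-miR-103-3p: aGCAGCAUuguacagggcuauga
mmu-miR-107-3p: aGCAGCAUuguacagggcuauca
mmu-miR-191-5p: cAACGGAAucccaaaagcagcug
mmu-miR-191-3p: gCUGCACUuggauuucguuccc
mmu-miR-423-5p: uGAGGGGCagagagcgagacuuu
mmu-miR-423-3p: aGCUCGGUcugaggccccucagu
mmu-miR-425-5p: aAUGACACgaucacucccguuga
mmu-miR-484: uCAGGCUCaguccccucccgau
mmu-miR-26a-5p: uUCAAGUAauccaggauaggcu

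The 9 sequences hold 8 distinct seeds and have GC contents from 40.9% for mmu-miR-26a-5p to 65.2% for mmu-miR-423-3p. Only mmu-miR-103-3p and mmu-miR-107-3p share a seed. Counted from the 5′ end they differ by G22C, with the base of mmu-miR-103-3p first, and the other 22 of 23 bases are identical. The mmu-miR-26a-5p seed is shared with mmu-miR-26b-5p, which differs from it by C11U and C21U over 21 compared bases. Among the 1679 mature names in the reference table, mmu-miR-6921-5p has the seed of mmu-miR-423-5p and mmu-miR-489-3p has that of mmu-miR-425-5p.

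The 9 matched members came from 11 mature loci. The miR-191 arms lie on the plus strand at chr9:108568325-108568347 for the 5p arm and chr9:108568367-108568388 for the 3p arm. The plus strand of the same chromosome carries mmu-miR-425-5p at chr9:108568789-108568811, 400 bases beyond mmu-miR-191-3p, and all 3 lie within the span of Dalrd3. Genes of the pantothenate kinase family hold mmu-miR-103-3p, at chr11:35782447-35782469 (plus strand, in Pank3) and chr2:131288103-131288125 (plus strand, in Pank2), and mmu-miR-107-3p, at chr19:34820700-34820722 (minus strand, in Pank1). Small phosphatase genes hold mmu-miR-26a-5p, at chr9:119031811-119031832 in Ctdspl and chr10:126995543-126995564 in Ctdsp2, both on the plus strand. Both arms of miR-423 lie on the minus strand within Nsrp1, at chr11:77078122-77078144 for the 5p arm and chr11:77078086-77078108 for the 3p arm. The locus of mmu-miR-484, chr16:14159630-14159651 on the plus strand, lies within the span of no other listed gene. Whether these positions are exonic or intronic was not examined, because the table used holds gene spans only.

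Most of these miRNAs gave little or no signal in LLC exosomes. Feature Extraction, the scanner software, called only mmu-miR-191-3p detected on both arrays, 1 of 10 members against 11.5% of all miRNAs on the array. In replicate 1 it also called mmu-miR-423-5p, giving 2 of 10 members against 13.5% of all miRNAs, and in replicate 2 it called 1 of 10 members against 11.9%. The other 8 members were called on neither array. A share of 10% is close to the background, so detection of these miRNAs was not more frequent than that of the array as a whole.

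Levels are given as the mean intensity of the spots of each probe after background subtraction, averaged over the probes of a miRNA, in scanner units. On this scale the 986 negative control spots of replicate 1 had a mean of 0.570 ± 2.48 (SD over spots) and the 995 of replicate 2 a mean of 0.760 ± 2.72. Their 95th percentiles were 4.73 and 5.23, and the brightest control spots reached 9.45 and 9.35. The 7 negative control probes had means between 0.340 and 1.25 in replicate 1, and between 0.368 and 1.90 in replicate 2. These means are averages over many more spots than the 7 to 15 of a member probe, so their range is a narrow one. The median miRNA not detected on an array had 0.130 units in replicate 1 and -0.04 in replicate 2, below all 7 control probe means. The miRNAs detected on both arrays had a median of 17.8 units, and the 10 members had a median of 1.38 against 0.365 for all 1881 miRNAs. The binding strength varies from probe to probe, so the order of members below is an order of signal and not of amount.

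**Figure D1:**
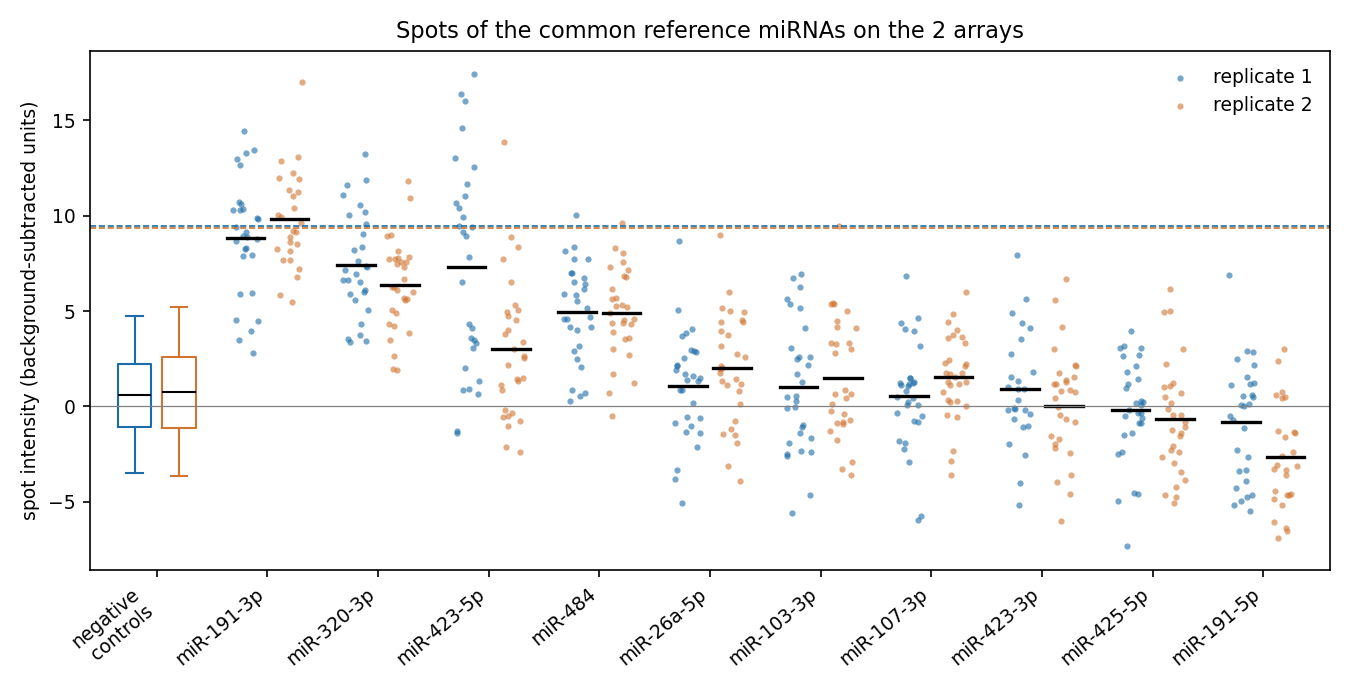
Background-subtracted intensity of every spot of the 10 members (points, outlier spots left out) in replicate 1 (blue) and replicate 2 (orange), with black bars for the mean over probes. The boxes show the negative control spots with whiskers at the 5th and 95th percentiles, and the dashed lines mark the brightest negative control spot of each array, at 9.45 and 9.35 units. Spots of miR-191-3p, miR-320-3p and miR-484 lie mostly above 0 on both arrays, but most spots of miR-320-3p and miR-484 lie below the dashed lines. Those of the 6 members on the right lie on both sides of 0 and nearly all below the dashed lines.

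The strongest signal came from mmu-miR-191-3p, the arm of the miR-191 hairpin that is usually the less abundant of the pair. Its mean intensity was 8.84 in replicate 1 and 9.82 in replicate 2, or 9.33 ± 0.70 (SD, n = 2 arrays). Of its spots, 28 of 29 in replicate 1 and 26 of 26 in replicate 2 were positive and significant against the background, and 12 and 13 of them were brighter than every negative control spot. Its 4 probes had mean intensities of 8.94, 8.50, 10.2 and 7.74 in replicate 1, whereas replicate 2 gave 10.6, 10.3, 9.71 and 8.68. The probes thus lay within a narrow range on each array. Its signal was nevertheless low among detected miRNAs, at rank 185 of the 216 detected on both arrays, and 85.2% of them had a higher level. The detection call rested on 1 of its 4 probes in replicate 1 and on 3 of 4 in replicate 2.

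The opposite arm, mmu-miR-191-5p, is the arm known as the guide and the one usually taken as a normalizer. Its mean intensity was -0.81 in replicate 1 and -2.64 in replicate 2, below that of all 7 negative control probes on both arrays. This also held for the median undetected miRNA, with 0.130 and -0.04. In replicate 1, 1 of its 29 spots was positive and significant, and in replicate 2, 0 of 27. Its rank by mean intensity was 1460 of 1881 in replicate 1 and 1858 in replicate 2. Its first probe had a mean of -5.17 in replicate 2, at rank 4415 of the 4415 probes, and of -2.24 in replicate 1, at rank 4211. Hence the arm with signal on both arrays was the 3p arm, and each array gave the same order of the arms. The relative amounts of the arms cannot be read from this order.

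Both mmu-miR-320-3p and mmu-miR-484 come from precursors that are known to be made without the nuclease Drosha. Most of their spots were positive and significant on both arrays, but neither member reached the detection call. The mean intensity of mmu-miR-320-3p was 7.44 in replicate 1 and 6.34 in replicate 2, or 6.89 ± 0.77 (SD, n = 2 arrays). All 29 of its spots in replicate 1 and 27 of 30 in replicate 2 were positive and significant, and 0 spots on either array were well above background. The mean intensity of mmu-miR-484 was 4.94 in replicate 1 and 4.89 in replicate 2, or 4.92 ± 0.038. Of its spots, 22 of 29 in replicate 1 and 24 of 29 in replicate 2 were positive and significant. Its arrays and its probes were the closest among the members, with probe means of 4.95 and 4.93 in replicate 1, against 4.87 and 4.91 in replicate 2. On both arrays its mean was above that of all 7 negative control probes and below the limit for detection.

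The 2 arrays disagreed most for mmu-miR-423-5p, which has been studied in plasma as a marker of heart failure. Its mean intensity was 7.33 in replicate 1 and 2.99 in replicate 2, or 5.16 ± 3.07 (SD, n = 2 arrays). The difference was present in both of its probes, which had means of 2.61 and 12.04 in replicate 1, against 0.477 and 5.51 in replicate 2. The second probe carried most of the signal on both arrays, and it was detected in replicate 1 only, with all 15 of its spots above the 95th percentile of the negative controls. In replicate 2 this probe had 6 of 15 such spots. Replicate 1 also had more detected miRNAs, with 253 against 223, and a higher 75th percentile of the detected probes, with 50.2 against 39.95, and their part in this difference was not tested. The other arm, mmu-miR-423-3p, had mean intensities of 0.907 and 0.0263, within the range of the control probe means in replicate 1 and below it in replicate 2. The median undetected miRNA of replicate 2, with -0.04, was also below that range.

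The remaining members had mean intensities below 2 units. The mean intensity of mmu-miR-26a-5p, a widely expressed miRNA known to repress Ezh2, was 1.07 in replicate 1 and 1.98 in replicate 2. Most of this came from its second probe, with means of 2.51 and 3.50, whereas the first had -0.38 and 0.468. Of its spots, 5 of 30 in replicate 1 and 11 of 30 in replicate 2 were positive and significant. For mmu-miR-103-3p, a regulator of Dicer and of insulin sensitivity, the mean intensity was 1.003 and 1.47, and 8 of 30 and 11 of 29 spots were positive and significant. The first probe of mmu-miR-103-3p had means of 2.003 and 3.69, with standard errors over spots of 0.68 and 0.66. These means were above all control probe means, which rest on many more spots. Of the spots of this probe, 4 of 15 and 10 of 15 were positive, whereas the second probe had means of 0.00342 and -0.76. For mmu-miR-107-3p the mean intensity was 0.537 and 1.53, with 6 of 30 and 8 of 30 such spots. The mean intensity of mmu-miR-425-5p was -0.21 and -0.66, and 4 of 30 and 3 of 30 spots were positive and significant. For comparison, 17.5% of the negative control spots in replicate 1 and 20.8% in replicate 2 carried the same flag.

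In the order of mean intensity, mmu-miR-191-3p was first, followed by mmu-miR-320-3p, mmu-miR-423-5p, mmu-miR-484, mmu-miR-26a-5p, mmu-miR-103-3p, mmu-miR-107-3p, mmu-miR-423-3p, mmu-miR-425-5p and mmu-miR-191-5p. The arrays of mmu-miR-191-3p did not overlap those of mmu-miR-320-3p, and those of mmu-miR-484 did not overlap those of mmu-miR-26a-5p. By contrast, mmu-miR-423-5p overlapped both of its neighbours. The values of mmu-miR-26a-5p overlapped those of mmu-miR-103-3p, as did those of mmu-miR-103-3p and mmu-miR-107-3p and those of mmu-miR-107-3p and mmu-miR-423-3p, so these neighbours could not be ordered. The arrays of mmu-miR-423-3p, mmu-miR-425-5p and mmu-miR-191-5p did not overlap in this order, although these members were within or below the control probe means. With 2 arrays, separate ranges are a description only. By rank among all miRNAs, mmu-miR-191-3p was at 220 and 186, mmu-miR-320-3p at 254 and 253, and mmu-miR-484 at 332 and 309 in replicates 1 and 2. The rank of mmu-miR-423-5p was 258 and 410, and those of the other 6 members were 524 or lower in the order on both arrays.

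**Figure D2:**
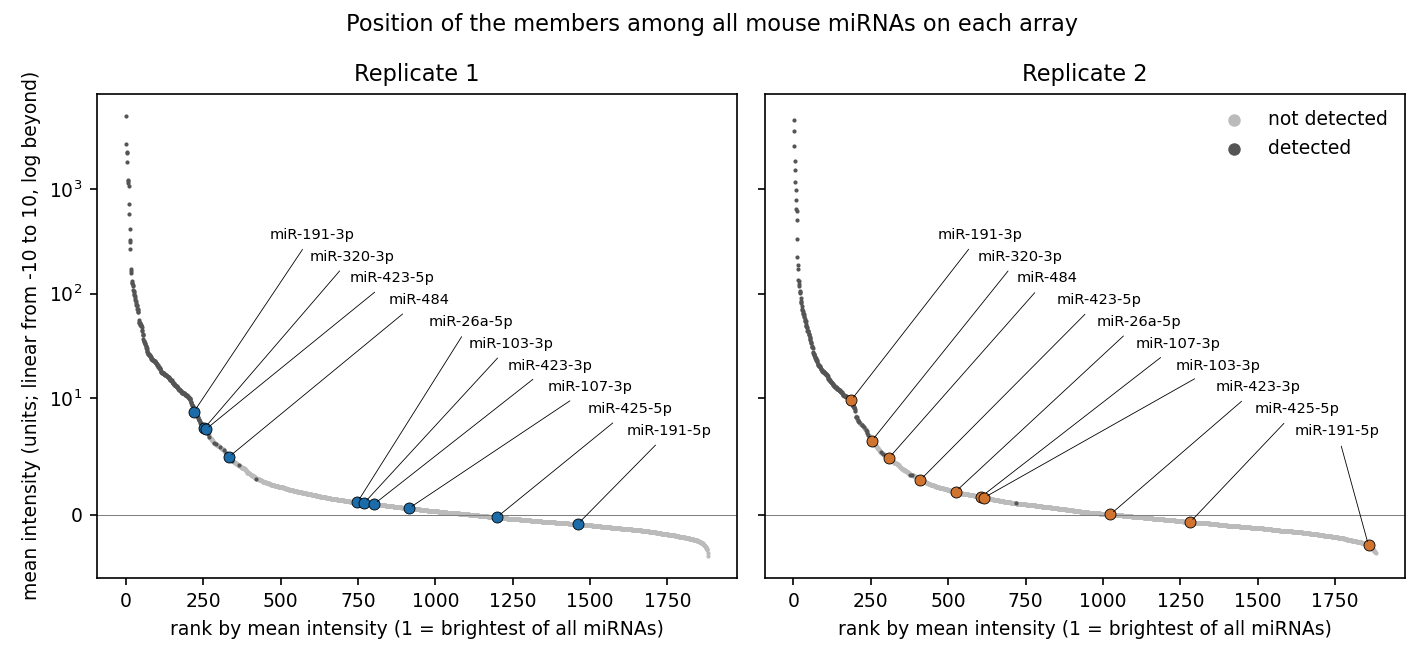
Mean intensity (y axis, scanner units, linear from -10 to 10 and logarithmic beyond) against rank by mean intensity (x axis) for all 1881 miRNAs in replicate 1 (left) and replicate 2 (right), with the 10 members as large points. Dark points are miRNAs called detected on that array. The members sit from rank 186 down, at the foot of the detected range or below it.

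The members with signal differed in their distance from the detection limit. A probe was detected when its total signal was above 3 times its error, and a miRNA when it had at least 1 such probe, which was the case for all calls on both arrays. The total signal of a probe was proportional to its mean spot intensity and its number of spots, so the limit can be written as an intensity. For dim probes it was 8.99 units in replicate 1 and 9.16 in replicate 2. The limit was the same for probes with 7 spots, at 8.99 and 9.17 units, and for those with 15, at 8.99 and 9.17, so the error that the software carries to the total grew in proportion to the number of spots. The spread over spots was smaller, and the second probe of mmu-miR-320-3p had a mean of 8.56 with a standard error of 0.71 over 15 spots in replicate 1, against its own limit of 9.37. Its signal was 2.74 times its error there, but 1.92 times in replicate 2, where its mean was 5.99. The first probe of this member had ratios of 2.06 and 2.14. The 2 probes of mmu-miR-484 had ratios from 1.57 to 1.63 on the 2 arrays. The 4 probes of mmu-miR-191-3p had ratios from 2.49 to 3.28, so this member lay at the limit itself. The other detected probe, that of mmu-miR-423-5p in replicate 1, had a ratio of 3.72. In all, the detection call was made for 2 of the 26 probes in replicate 1 and for 3 of 26 in replicate 2, against 483 and 406 of all 4415.

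**Figure D3:**
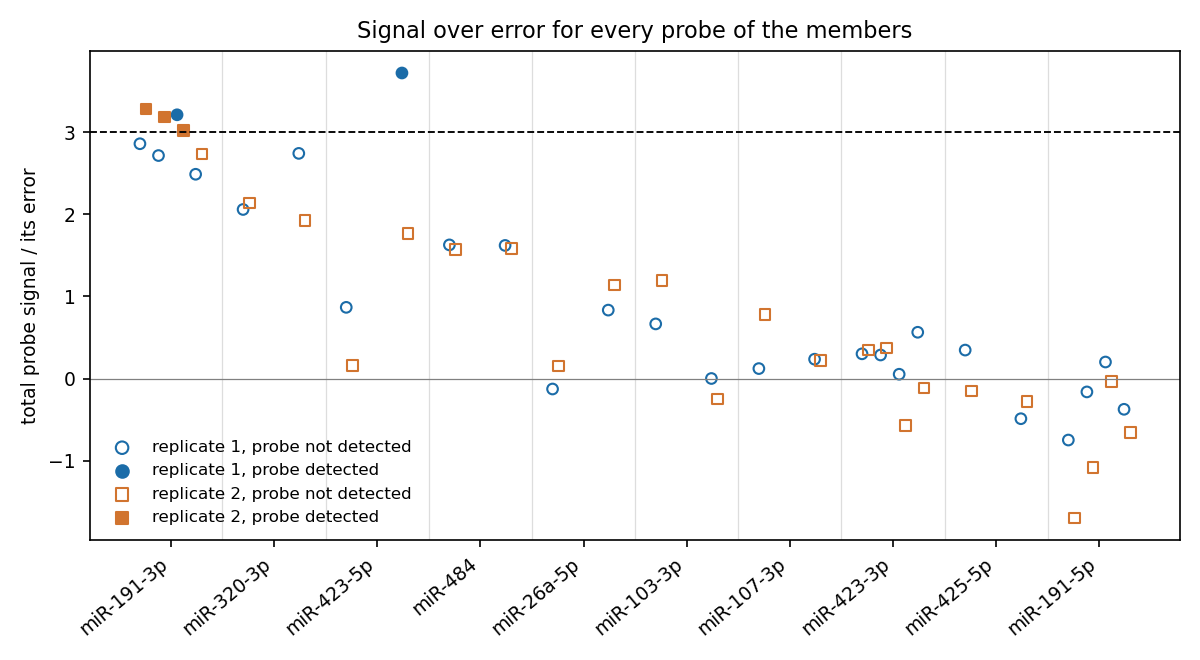
Total signal of each probe divided by its error (y axis, no unit) for the 26 probes of the 10 members in replicate 1 (blue circles) and replicate 2 (orange squares), with filled symbols for detected probes and a dashed line at the detection limit of 3. The probes of miR-191-3p lie close to the line, from 2.49 to 3.28, and those of miR-484 from 1.57 to 1.63.

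A looser call asked that 50% or more of a probe's spots be positive and significant on both arrays. By this call 4 of 10 members passed, which were mmu-miR-191-3p, mmu-miR-320-3p, mmu-miR-423-5p and mmu-miR-484, against 25.4% of all miRNAs. With the stricter flag of well above background for these spots, 0 of 10 members passed, against 7.07% of all miRNAs. Over all spots of the members, 45.2% in replicate 1 and 43.4% in replicate 2 were positive and significant, compared with 31.1% and 28.6% of all miRNA spots. In contrast, only 1.03% and 0.345% were well above background, compared with 7.53% and 6.13% of all miRNA spots. For the 4 members passing the looser call, 75.9% to 100% of spots were positive in replicate 1 and 43.3% to 100% in replicate 2. For the other members the shares were 3.45% to 26.7% and 0% to 37.9%, against 17.5% and 20.8% of the negative control spots. The faint positive spots thus came mostly from those 4 members, which were picked by the same flag. Few spots of any member were well above background. Spots of a probe share their sequence and their array and are not independent samples.

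To see what offset between the arrays the members would give as normalizers, the intensity ratio of replicate 2 over replicate 1 was taken without scaling for the 4 members that passed the looser call. On the log2 scale it was 0.15 ± 0.12 (SE over spots) for mmu-miR-191-3p, -0.23 ± 0.13 for mmu-miR-320-3p, -0.02 ± 0.19 for mmu-miR-484 and -1.29 ± 0.25 for mmu-miR-423-5p. The ratio of the 75th percentiles of the arrays was -0.33, and the median ratio of the 216 miRNAs detected on both arrays was -0.09, with quartiles of -0.46 and 0.07. Thus, mmu-miR-320-3p and mmu-miR-484 lay within these quartiles. The ratio of mmu-miR-191-3p was above them, and 14.4% of the 216 miRNAs had a higher one. The ratio of mmu-miR-423-5p was far below, and 4.63% of the 216 had a lower one. That value is not a measured offset, because mmu-miR-423-5p was not detected in replicate 2, where its first probe, with 0.477 units, was within the control probe means. Its second probe had means of 12.04 and 5.51 in replicates 1 and 2, and 12 of its 15 spots were positive in replicate 2. The ratios of mmu-miR-320-3p and mmu-miR-484 are not measured offsets by the same rule, because both were detected on neither array. The other 3 ratios ranged from -0.23 to 0.15, and of these members only mmu-miR-191-3p was detected on both arrays. The errors cover the spread over spots alone, and which offset is nearest to the difference in RNA input was not tested.

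**Figure D4:**
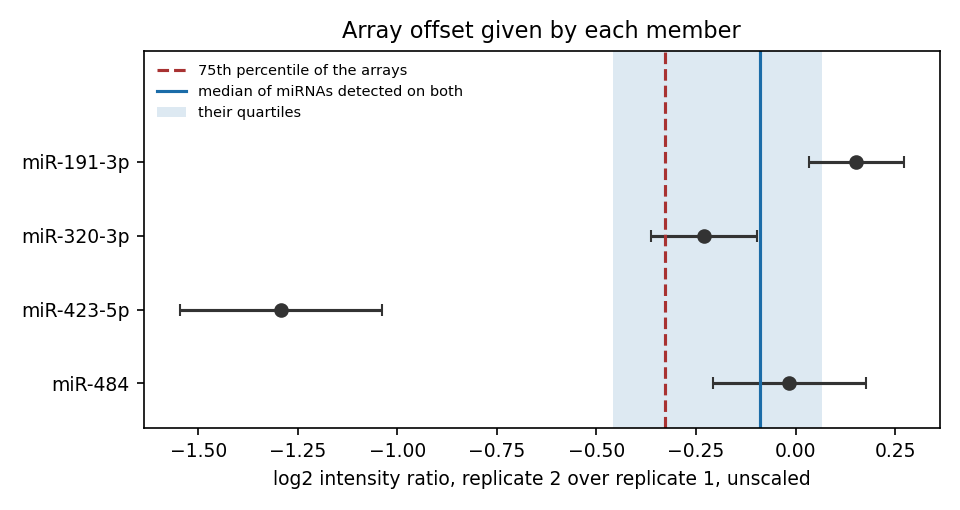
Unscaled log2 ratio of mean intensity, replicate 2 over replicate 1 (x axis), for the 4 members that passed the looser call, with the standard error over spots as bars. The dashed line is the ratio of the 75th percentiles (-0.33), the solid line the median of the 216 miRNAs detected on both arrays (-0.09) and the band their quartiles. The value of miR-423-5p, -1.29, lies outside the band by more than its error, and this member was not detected in replicate 2.

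Levels scaled to the 75th percentile of the detected probes of each array, on the log2 scale, were -2.61 and -2.07 for mmu-miR-191-3p, with a mean of -2.34 ± 0.38 (SD, n = 2 arrays). A level of 0 is a signal at that percentile. For mmu-miR-320-3p the levels were -2.85 and -2.78, and for mmu-miR-484 they were -3.71 and -3.70, whereas those of mmu-miR-423-5p were -4.23 and -7.72. The median level of the 10 members was -8.66, against -11.51 over all 1881 miRNAs. These medians are set largely by spots at or below 0, which were given the lowest positive value of the array, and 77 of 292 member spots in replicate 1 and 85 of 290 in replicate 2 were such spots. The scaled difference between arrays was 0.54 for mmu-miR-191-3p, replicate 2 minus replicate 1. Over the 216 miRNAs the median was 0.21 with sign and 0.35 without regard to sign, so part of the 0.54 was shared by the detected miRNAs under this scaling. The difference for mmu-miR-191-3p was 0.42 with the medians of the detected miRNAs made equal and 0.21 without scaling between arrays.

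The values the authors deposited per miRNA gave another picture for some members. The total signal that the software wrote for mmu-miR-423-5p in replicate 1 was 38.3, about 15 times the total of its detected probe, 2.55. For mmu-miR-191-3p the written total was 6.82 in replicate 1, 6.77 times the 1.01 of its own detected probe, and 3.33 in replicate 2, equal to the sum of its own detected probes. By these totals mmu-miR-191-3p was lower in replicate 2, whereas by spot intensity it was higher. In the deposited log2 table, 3 of 10 members lay above the lowest value of -3.32 in both columns, against 15.2% of all miRNAs. These were mmu-miR-191-3p with -1.25 and 2.04, mmu-miR-103-3p with -2.14 and -0.95, and mmu-miR-107-3p with -2.18 and -0.95, in replicates 1 and 2. The last 2 were detected on neither array, and their values were nearly equal in each column. For both, the total written by Feature Extraction was 0.1 on each array, the lowest total it wrote, so their values in this table do not show signal. The members mmu-miR-320-3p and mmu-miR-484, with more signal on both arrays, were at the lowest value in both columns. How this table was made is not stated, so its scale is not known.

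Of 9 listed opposite arms and close relatives of the members, 8 were on the array. Of these 0 were detected, against 13.5% of all miRNAs in replicate 1 and 11.9% in replicate 2, and with 8 miRNAs such a count is not set apart from these shares. Among them mmu-miR-103-1-5p had the highest mean intensity, 4.48 and 5.23, above both mmu-miR-103-3p and mmu-miR-107-3p on each array. The other arm of miR-425, mmu-miR-425-3p, had 3.002 and 3.21, and mmu-miR-26b-5p, which shares the mmu-miR-26a-5p seed, had 0.0215 and 1.01.

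A list of 20 other miRNAs used as references for extracellular RNA was chosen with earlier results of these data known, so its share is a description only. Of these 20, 5 were detected on both arrays, against 11.5% of all miRNAs and 1 of the 10 members. The difference between these shares was not tested. They were the same 5 on each array. Their mean intensities in replicates 1 and 2 were 40.5 and 54.9 for mmu-miR-21a-5p, 30.4 and 31.0 for mmu-miR-92a-3p, 22.1 and 24.9 for mmu-let-7a-5p, 22.7 and 20.4 for mmu-let-7i-5p, and 9.33 and 14.6 for mmu-miR-15b-5p. All 5 were brighter than each of the 10 members on both arrays. By contrast, mmu-miR-16-5p, a frequent choice for plasma, had 2.82 and 2.39 and was not detected.

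Markers of cells that the preparation should not hold were read in the same way. The red cell miRNAs mmu-miR-451a, mmu-miR-144-3p and mmu-miR-486a-5p were detected on neither array, with summed mean intensities of 6.18 and 6.55, nor were the 4 white cell miRNAs, with 7.13 and 8.73, or the liver miRNA mmu-miR-122-5p. Most of the white cell sum came from mmu-miR-223-3p, with 6.92 and 8.15, and the other white cell miRNAs had at most 1.51 and 1.76. Of the red cell sum, mmu-miR-486a-5p gave 4.87 and 4.51. Of the 3 muscle miRNAs, mmu-miR-206-3p was detected on both arrays, with 27.1 and 21.4, and the other 2 on neither.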

How the data were processed

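The 2 arrays were Agilent mouse miRNA microarrays of LLC-derived exosomes, 1 for each independent experiment. The authors deposited the fluorescence intensity of each spot from Feature Extraction 10.7.1.1 as given in the file headers (the labels name version 9.1), background-subtracted but not normalized across arrays, and with them probe totals, errors and detection flags of 0 or 1 and a p-value of each spot against background. The authors also deposited log2 values per miRNA by steps that are not given in the sources used here, with identical sorted columns and a median of -3.32 in each.

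Control spots and outlier spots (1178 and 1134) were left out, and 0 spots were saturated. Intensities were averaged over spots, then probes. Levels are the log2 of each spot's intensity, averaged over spots and then probes, relative to the 75th percentile of the array, taken over the mean intensities of 393 probes detected on both arrays, with spots at or below 0 set to the lowest positive value. Python 3.11.15, numpy 2.4.6, pandas 2.3.3, R 4.3.3 and limma 3.58.1 (normexp, offset 50) were used. The level computation was tested on simulated arrays. All simulated signals were brighter than the mean of every member here, so the test does not cover levels near background. The number of arrays limits the precision.

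The members and lists were chosen with earlier results of these data known. The miRNAs named were the 10 members, their other arms and relatives, detected members of a list of other references and marker miRNAs. The miRNAs mmu-miR-6921-5p and mmu-miR-489-3p were named after the seeds were compared, and mmu-miR-16-5p and mmu-miR-223-3p after their values were seen. Names were matched in RefSeq tables of GRCm38.p6. With 1 group of 2 arrays, no test between groups was made.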

Additional observations from a re-analysis of the deposited data

How the results depend on the processing

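The number of members detected on both arrays, 1, became 0 if spots had to be well above background and 0 when every probe of a miRNA had to be detected. It was 4 with the call of positive and significant and 3 in the deposited log2 table. With either replicate left out it ranged from 1 to 2. The median level of the members, -8.66, was -4.44 with the 75th percentile over all probes, -0.81 with normexp, -3.32 in the deposited log2 table and -5.76 with the brightest probe, and from -9.93 to -7.66 with either replicate left out. The difference between arrays for mmu-miR-191-3p, 0.54, was 3.30 in the deposited log2 table and 1.89 with the sum of its own detected probes, an alternative chosen after seeing the data. It turned to -0.87 with the total signal of Feature Extraction, whose value for replicate 1 was above the sum of its own detected probe. Without regard to sign, the median difference was 1.15 when all 10 members were used, detected or not. The rank of mmu-miR-191-3p among the detected miRNAs, 185, was 210 with the brightest probe, 206 in the deposited log2 table and 212 with the sum of its own detected probes, and from 164 to 205 with either replicate left out. The cause of the changes in the difference and the rank was not tested. Averaging spots before taking the log, also chosen after seeing the data, and keeping outlier spots moved none of the level, difference or rank beyond the spread between the arrays. No paired analysis was possible because LLC exosomes are the only group. Signal over background limits every level below about 9 units, and 8 of 10 members were below detection on both arrays.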
